A study of Mus musculus with 8 samples.

Results

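The cytosolic ribosomal protein genes were taken by symbol, as the genes named Rpl or Rps with a number and the 3 stalk genes and Rpsa, without columns named as pseudogenes and without the S6 kinases. The rule gave 82 of the 19224 genes measured, and it used no measured value. Of these, 77 encode core proteins of the ribosome (31 of the small 40S subunit, 43 of the large 60S subunit and 3 of its stalk) and 5 encode paralogues of core proteins (Rpl3l, Rpl7l1, Rpl22l1, Rpl39l and Rps27l). All 82 were found in the GENCODE annotation of GRCm38, spread over 19 chromosomes.

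The study examined sympathetic neurons of the mouse stellate ganglion, the ganglion that supplies the heart and the forelimb. All mice were C57BL6/J animals of 8-10 weeks and belonged to 1 condition: an adeno-associated virus with GFP had been placed in the heart and another with tdTomato in the front paws, so that no group without virus or treatment was compared. The authors grouped 1303 neurons into 8 subtypes, which are named for noradrenergic (NA1a, NA1b, NA1c, NA2, NA3), cholinergic (Ach1, Ach2) and glutamatergic (Glut) neurons. The neurons carried 8 mouse names, of which 5 could be matched to 1 sample each (replicates 1 to 5, 1002 neurons), while the 301 neurons of the other 3 names entered pooled values only. The 5 matched samples were all of batch 2 and the other 3 samples of batch 1, so every test rests on 1 batch. The dissociation protocol describes 16 ganglia, left and right combined, in 1 digestion, so how separate the mice were kept before capture is not given in the sources used here.

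Ribosomal proteins are made in near-equal numbers and assembled with ribosomal RNA into the 2 subunits that translate mRNA. Their mRNAs begin with a run of pyrimidines, the terminal oligopyrimidine (TOP) motif, through which mTORC1 and LARP1 control their translation and stability together. Several of the proteins also act outside the ribosome, for example Rpl5 and Rpl11, which with 5S rRNA bind the p53 regulator Mdm2.

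To show what the members do and do not share at their start sites, the stretch from 60 bases before to 20 bases after the annotated start is given for 8 core members. The first 4 had the largest differences between NA2 and the NA1 subtypes among members with an entry, and the last 4 had the smallest, which did not pass the test. Sequences are those of RefSeq on GRCm38.p6, and 62 of the 82 members had an entry. Each line runs 5′ to 3′ on the strand of the gene. Capitals mark the longest run of C and T of at least 3 bases that begins with C within 5 bases of the annotated start, and a line without capitals has none. Bases further upstream are not counted, so a marked run can be part of a longer one. The marks depend on which start is annotated, and other starts of these genes were not examined.
Rps3a1 (chr3:86142649-86142728, minus strand): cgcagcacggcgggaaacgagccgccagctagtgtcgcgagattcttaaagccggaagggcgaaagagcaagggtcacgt
Rpl15 (chr14:18270967-18271046, minus strand): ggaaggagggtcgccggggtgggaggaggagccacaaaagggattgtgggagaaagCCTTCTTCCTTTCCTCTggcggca
Rpl9 (chr5:65391412-65391491, minus strand): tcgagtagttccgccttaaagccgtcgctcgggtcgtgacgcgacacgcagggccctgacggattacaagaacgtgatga
Rps3 (chr7:99483690-99483769, minus strand): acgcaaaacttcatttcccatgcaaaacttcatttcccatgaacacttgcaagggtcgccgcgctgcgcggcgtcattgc
Rpl28 (chr7:4792905-4792984, plus strand): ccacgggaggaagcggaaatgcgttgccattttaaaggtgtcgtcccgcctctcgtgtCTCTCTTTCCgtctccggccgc
Rpl38 (chr11:114668520-114668599, plus strand): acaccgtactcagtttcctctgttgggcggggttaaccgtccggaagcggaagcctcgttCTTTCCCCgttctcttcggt
Rpl35 (chr2:39005112-39005191, minus strand): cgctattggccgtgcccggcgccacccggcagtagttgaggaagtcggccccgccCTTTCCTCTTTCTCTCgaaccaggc
Rpl41 (chr10:128549149-128549228, minus strand): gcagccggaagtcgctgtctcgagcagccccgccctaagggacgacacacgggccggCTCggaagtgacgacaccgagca

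Such a run of at least 6 bases at the annotated start was found in 25 of the 62 members with an entry, or 40.3%, against 10.2% of all 27025 promoters in the table. Members counted as without a run lack it at that start only. The Rpl15 and Rpl35 runs, counted as 17 and 16 bases, were both long, although Rpl15 had one of the largest NA2 differences and Rpl35 one of the smallest. The Rpl35 run continues upstream of the counted bases. Within the window of 250 bases before to 50 after the start, the letters CCGGAAG (either strand), which are the core of an ETS-family motif, occurred in 40.3% of members and 9.12% of all promoters. The letters GGGCGG, the GC box, occurred in 59.7% of members and 35.9% of all promoters, and AAGATGG, the core of a YY1 motif, in 14.5% and 6.48%. Over the 60 tested members with an entry, the length of the run and the size of the NA2 difference had a Spearman's rho of -0.01 (a description over genes). The median log2 difference was 1.26 in the 25 members with a run of at least 6 bases and 1.27 in the 35 without.

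The values used are UMIs per 10000 UMIs of a neuron, where a UMI (unique molecular identifier) counts 1 captured RNA molecule. They are shares of what was captured from a neuron, so that more copies of a gene and fewer copies of other genes cannot be told apart. Totals per neuron ran from 679 to 19949 UMIs, and a profile (the mean over the neurons of 1 mouse and subtype) rested on 14 to 94 neurons and 47777 to 377913 UMIs. The number of neurons limits the precision of each profile.

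Some cell barcodes recurred between libraries, and whether they mark the same cells was not tested. In all, 21 cell barcodes occurred in more than 1 of the matched mice, up to all 5, and they marked 73 neurons, of which 55 were NA2, 15 Ach2 and 3 Glut. For 20 of the 21 barcodes every neuron had the same subtype. In NA2 they made up 36.7% of the neurons of matched mice, and replicates 1 to 5 held 17, 8, 14, 14 and 2 NA2 neurons with a shared barcode and 10, 6, 35, 29 and 15 without. No NA1a, NA1b, NA1c, NA3 or Ach1 neuron shared one, nor did any neuron of the unmatched mouse names. The counts, the ratios and the differences of named members in NA2 are therefore also given without these neurons, over the 4 mice that kept 10 NA2 neurons unless stated otherwise.

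The share of a neuron's UMIs that came from ribosomal protein genes differed by subtype, and NA2 had the highest and NA1b and NA1c the lowest of the 5 noradrenergic subtypes. In NA2 the mean share over neurons was 8.65%, 9.43%, 7.11%, 7.39% and 7.82% in replicates 1 to 5. In NA1a it was 5.57%, 6.05%, 4.40%, 4.57% and 3.32%. The lowest NA2 mouse lay above the highest NA1a mouse, and replicate 5 was the lowest in NA1a, NA1b and NA1c.

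In NA1b the shares were 3.02%, 2.85%, 3.59%, 3.30% and 2.79%. In NA1c they were 3.21%, 3.50%, 3.52%, 3.09% and 2.59%. The ranges of these 2 subtypes overlapped, and NA1b was the higher of the pair in 3 of 5 mice. The means were 8.08% ± 0.952 (SD, n = 5) in NA2, 4.78% ± 1.07 in NA1a, 3.11% ± 0.331 in NA1b and 3.18% ± 0.378 in NA1c. NA2 was above NA1a in 5 of 5 mice by 3.30 ± 0.721 percentage points (SD), and NA1a was above NA1b in 5 of 5 mice by 1.67 ± 1.15.

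NA3 reached 10 neurons in 3 mice, with shares of 6.62%, 4.28% and 4.27% in replicates 2, 4 and 5 (mean 5.06% ± 1.35, SD, n = 3). It was below NA2 in 3 of 3 mice and above NA1a in 2 of 3, so that NA3 and NA1a were not separated beyond their spread. Ach1 came almost wholly from 1 mouse (replicate 4, 55 of 62 neurons, 4.51%), and Ach2 had 10 neurons in replicates 1 and 4, with 5.77% and 4.86%. Glut had 17 neurons in the matched mice and its median share over neurons, 1.56%, was the lowest of the 8 subtypes.

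**Figure D1:**
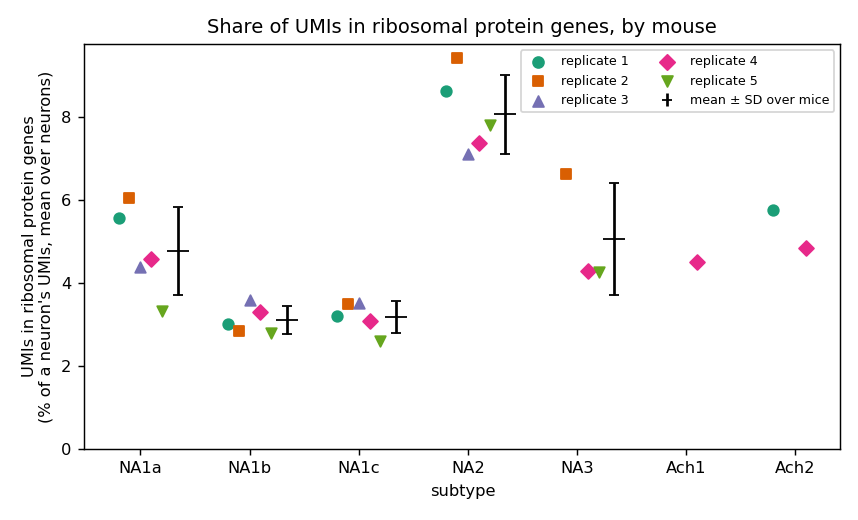
Mean percent of UMIs in the 82 ribosomal protein genes (y axis) for each subtype (x axis), where each symbol is 1 mouse with at least 10 neurons of that subtype and the black marks are mean ± SD over mice where 3 or more had a value. The 5 NA2 symbols lie between 7.11% and 9.43%, above every NA1a, NA1b and NA1c symbol.

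The neurons of the 3 unmatched mouse names were also highest in NA2 and lowest in Glut among subtypes with at least 20 neurons. Their medians were 8.78% for 25 NA2 neurons, 5.16% for 134 NA1a, 3.66% for 74 NA1b, 3.61% for 23 NA1c and 2.00% for 20 Glut neurons. Without the shared barcodes the mean NA2 share was 7.50% ± 0.908 (SD, n = 4), since 1 mouse fell below 10 neurons. The median over NA2 neurons was 7.99% in the 55 with a shared barcode and 6.87% in the 95 without. Ach2 moved more, from a median of 8.46% in its 15 neurons with a shared barcode to 3.60% in its 31 without.

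The order by share was not the order by number of molecules. The median NA2 neuron of all mice held 195 UMIs of these genes out of 2461 UMIs in all, whereas the median NA1a neuron held 315 out of 6525 and the median NA3 neuron 348 out of 6773. Compared within classes of depth, NA2 was the highest by number as well. Among neurons of 2000 to 4000 UMIs the median number was 190.5 in 64 NA2, 126 in 18 NA1a, 96.5 in 18 NA3, 70 in 99 NA1b and 81 in 107 NA1c neurons of the matched mice. In the 31 NA2 neurons of that class without a shared barcode it was 191. Among neurons above 6000 UMIs, none of which in NA2 had a shared barcode, it was 1033 in 23 NA2, 685 in 48 NA3, 439 in 133 NA1a, 322 in 77 NA1b and 280 in 39 NA1c neurons. That class runs up to 20000 UMIs and depth was not matched within it, so its numbers are not a comparison at like depth. The median shares in it were 7.02% in NA2, 5.74% in NA3, 4.78% in NA1a, 3.35% in NA1b and 3.28% in NA1c.

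**Figure D2:**
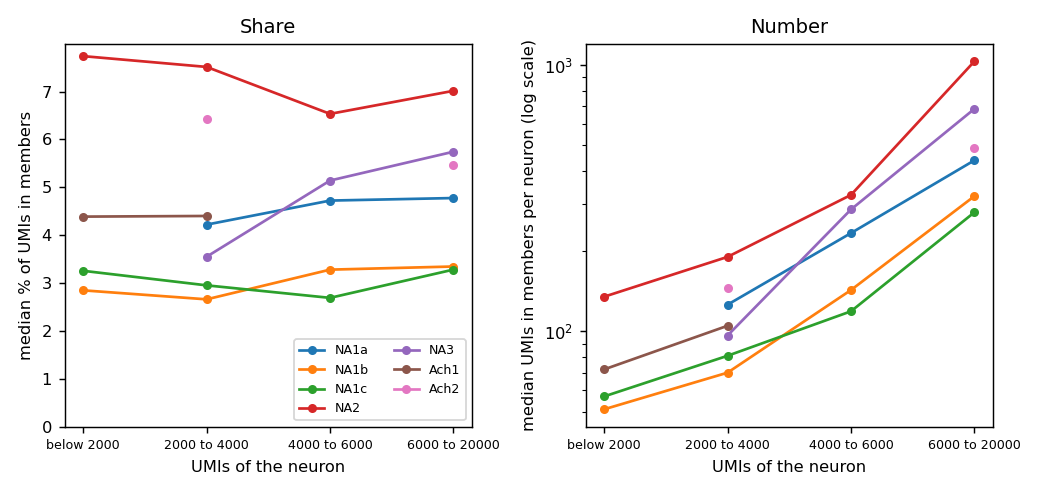
Median percent of UMIs in ribosomal protein genes (left) and median number of such UMIs per neuron on a log axis (right), against the depth class of the neuron (x axis, UMIs), for neurons of the 5 matched mice; classes with fewer than 10 neurons are left out. NA2 is the highest in every class, and NA3 goes from 3.55% at 2000 to 4000 UMIs to 5.74% above 6000.

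Thinning every neuron to 2000 UMIs, which left out 49 of 150 NA2, 47 of 216 NA1c, 42 of 237 NA1b, 7 of 92 NA3 and 6 of 182 NA1a neurons, gave shares of 7.59% ± 0.668 (SD, n = 4) in NA2 and 4.77% ± 1.10 (n = 5) in NA1a. At that depth a median NA2 neuron had at least 1 UMI of 62 of the 82 genes, an NA3 neuron of 55, an NA1a neuron of 49 and an NA1b or NA1c neuron of 37. Within a subtype of the matched mice, Pearson's r of the share with the log10 of the total was 0.02 in 216 NA1c, 0.09 in 150 NA2, 0.10 in 182 NA1a, 0.28 in 237 NA1b and 0.31 in 92 NA3 neurons. It was 0.70 in 62 Ach1, -0.32 in 46 Ach2 and -0.51 in 17 Glut neurons (descriptions over neurons that share libraries).

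Other RNA moved with these shares. The nuclear RNAs Malat1 and Meg3 were low in NA2, with Malat1 at 74.2 ± 24.0 per 10000 (SD, n = 5) against 872 ± 118 in NA1a, 838 ± 215 in NA1b and 763 ± 228 in NA1c. Meg3 was at 13.7 ± 4.07 in NA2 and at 266 ± 50.6, 447 ± 164 and 506 ± 127 in NA1a, NA1b and NA1c. Mitochondrially encoded RNA took 7.27% ± 1.01 in NA2 and 3.37% to 4.51% in the NA1 subtypes. Glut, whose share of ribosomal protein UMIs was the lowest, also had a low median Malat1 (11.2 per 10000 over 17 neurons). The part of these differences in the results was not tested, but with Malat1 and Meg3 taken out of every total the NA2 share was 8.18% ± 1.02 and the NA1a share 5.40% ± 1.17, and with mitochondrially encoded genes taken out they were 8.76% ± 1.12 and 4.93% ± 1.04. NA2 neurons without a shared barcode had Malat1 at 74.8 ± 40.9 and Meg3 at 14.8 ± 7.19 (SD, n = 4). In Ach2 the share and log10 Malat1 ran in opposite directions over 46 neurons (Pearson's r = -0.82, a description that includes the neurons with shared barcodes).

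Member genes were then compared one by one between subtypes over mice. In limma, log2 of the profile mean plus 0.1 was fitted for 6185 genes at 0.5 UMIs per 10000 or more in at least 3 profiles, with the mouse as a block, and a gene was called at a Benjamini-Hochberg adjusted p below 0.05 over all genes tested. Of the 82 members, 80 passed this filter. The other 2, Rpl3l (the striated muscle paralogue of Rpl3) and Rpl39l (the testis paralogue of Rpl39), had 0 and 1 UMI in all 1303 neurons. Since the authors clustered the neurons on expression that may include these genes, the tests are not independent of how the subtypes were drawn. The comparisons also share samples, because each subtype is set against the mean of the others.

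In NA2, compared with the mean of NA1a, NA1b and NA1c, 71 of 80 members were higher and 0 lower, where 24.9% of all genes tested were called higher and 39.1% lower. The median log2 difference over the members was 1.17 (2.26-fold), while over all genes it was -0.26. Of the 71, 29 encode 40S proteins (of 31 tested), 37 encode 60S proteins (of 43), 3 are the stalk genes and 2 are paralogues. For 47 members every NA2 profile lay above all 15 NA1 profiles, as did 7.24% of all genes tested. Without the shared barcodes 71 members were higher, of which 68 were among the 71 above, and the median was 1.19, where 19.9% of all genes were called higher and 34.3% lower. Every NA2 profile then lay above all NA1 profiles for 43 members and for 5.81% of all genes tested. On simulated data the false calls in this comparison exceeded the nominal rate, most of them in the lower direction. With Malat1 and Meg3 left out of the totals 67 were higher and 2 lower, with a median of 1.01, where 19.1% of all genes were called higher and 43.2% lower.

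**Figure D3:**
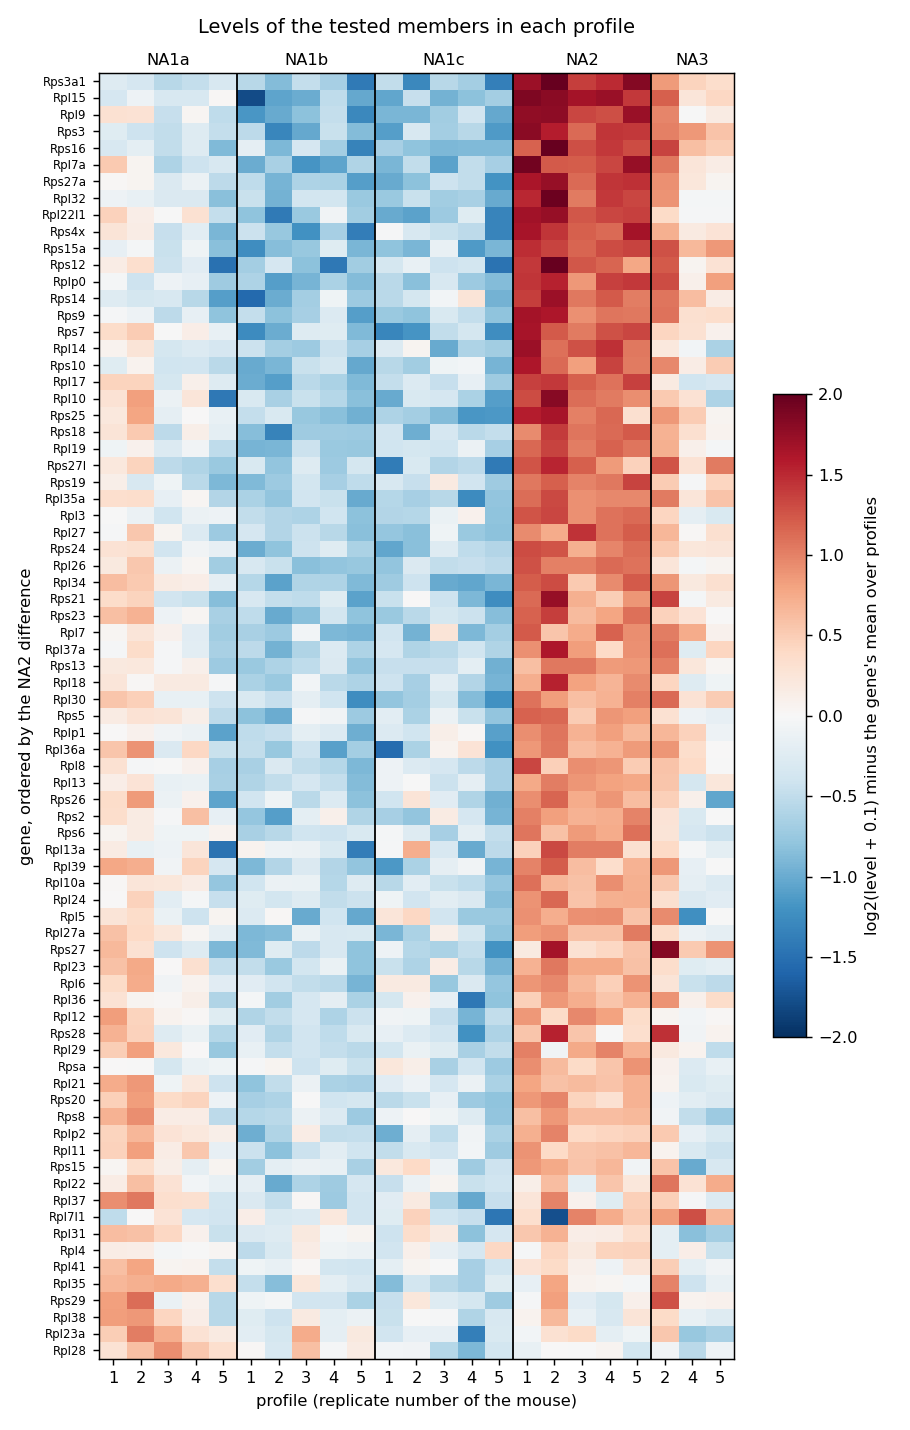
Levels of 77 of the 80 tested members (rows, ordered by the NA2 difference) in the 23 profiles (columns, labelled by the replicate number of the mouse within each subtype), as log2(level + 0.1) minus the mean of the gene, on a colour scale from -2 to 2. The 5 NA2 columns are the highest for most rows, and the lowest rows, from Rpl35 to Rpl28, are highest in NA1a or NA3.

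The largest differences were those of Rps3a1, Rpl15, Rpl9, Rps3 and Rps16. Rps3a1, a 40S protein, was at 15.3, 21.9, 12.2, 13.2 and 16.6 UMIs per 10000 in NA2 of replicates 1 to 5. Over the 15 NA1 profiles it ran from 1.66 over a median of 3.09 to 3.83. The groups did not come near each other, and the log2 difference was 2.42 ± 0.17 (SE, limma adjusted p = 1.39e-15).

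Rpl15, a 60S protein whose gene is mutated in some patients with Diamond-Blackfan anaemia, was at 12.9, 12.4, 11.2, 11.7 and 9.45 in NA2. In the NA1 profiles it ran from 0.932 over 2.14 to 3.51, also without overlap. Its log2 difference was 2.39 ± 0.17 (limma adjusted p = 2.93e-15). Rps3, a 40S protein near the mRNA entry that also takes part in DNA repair, was at 11.9, 10.2, 7.45, 9.19 and 9.05 against 1.30 to 2.81 in the NA1 profiles, with a log2 difference of 2.13 ± 0.16 (limma adjusted p = 3.73e-14).

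Rpl9 and Rps16 followed, with log2 differences of 2.18 ± 0.17 and 2.09 ± 0.17. Rpl9 ran from 13.9 to 19.6 in NA2 and from 2.25 to 7.02 in the NA1 profiles. Rps16 was at 8.20, 14.6, 8.87, 9.69 and 8.88 in NA2 and no higher than 3.13 in the NA1 profiles. All 5 genes were higher in NA2 in 5 of 5 mice. The differences of Rps3a1, Rpl15, Rpl9, Rps3 and Rps16 were 2.07, 2.20, 1.97, 1.91 and 1.96 without the shared barcodes, and all were called. Ribosomal protein genes have many processed pseudogenes and near-identical copies in the mouse genome, so that the level of a single member depends on how reads with several matches were counted.

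The members below, named for a role outside the ribosome or in disease, were called in NA2, as were 71 of all 80 members. Rpl38, named by the same rule, was not called. Rps27a, which is made as a fusion with ubiquitin, was at 21.0, 22.5, 14.8, 18.1 and 18.6 in NA2 against 2.86 to 6.96 in the NA1 profiles (log2 difference 2.05 ± 0.15, limma adjusted p = 8.01e-15). Rps6, the target of the S6 kinases, differed by 1.12 ± 0.16, and Rps19, the gene most often mutated in Diamond-Blackfan anaemia, by 1.57 ± 0.16. The Mdm2 partners Rpl5 and Rpl11 differed by 1.06 ± 0.20 and 0.78 ± 0.15. Rpl10, which is added late in 60S assembly, differed by 1.66 ± 0.18 and Rpsa, the laminin receptor precursor, by 0.88 ± 0.14. Every one of these called members was higher in 5 of 5 mice. Each was also called without the shared barcodes, with differences from 0.80 for Rpl11 to 1.84 for Rps27a.

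The stalk proteins, which recruit the elongation factors, were all higher in NA2, but not by the same amount. Rplp0, the base of the stalk, was at 12.1, 13.1, 8.19, 11.5 and 11.9 in NA2 and between 2.01 and 4.31 in the NA1 profiles. Its log2 difference of 1.91 ± 0.17 was larger than those of its partners Rplp1 (1.18 ± 0.14) and Rplp2 (0.80 ± 0.16). The 3 differences were 1.73, 1.25 and 0.82 without the shared barcodes. Whether they differ from each other was not tested.

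Of the 80 members 9 did not pass in NA2, among them Rpl7l1, Rpl23a, Rpl28, Rpl35, Rpl38, Rpl41 and Rps29. Rpl28 was at 7.80, 8.66, 8.55, 8.91 and 6.67 in NA2 against 4.58 to 16.5. Rpl38, which is needed for translation of a set of Hox mRNAs in the embryo, was at 10.4, 15.6, 8.97, 7.92 and 11.8 against 6.51 to 18.1 and differed by 0.14 ± 0.16 (limma adjusted p = 0.468). For both genes the NA2 values lay inside the range of the others. Rpl7l1 (0.87 ± 0.33), Rpl41 (0.40 ± 0.16) and Rps29 (0.49 ± 0.17) were called higher when the shared barcodes were left out, and Rpl23a, Rpl28, Rpl35 and Rpl38 were not called. With a minimum of 5 neurons as well, Rpl35 (0.58 ± 0.20, limma adjusted p = 0.0148) and Rpl38 (0.45 ± 0.17, limma adjusted p = 0.0269) were called higher. Rpl23a and Rpl28 were still not called.

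**Figure D4:**
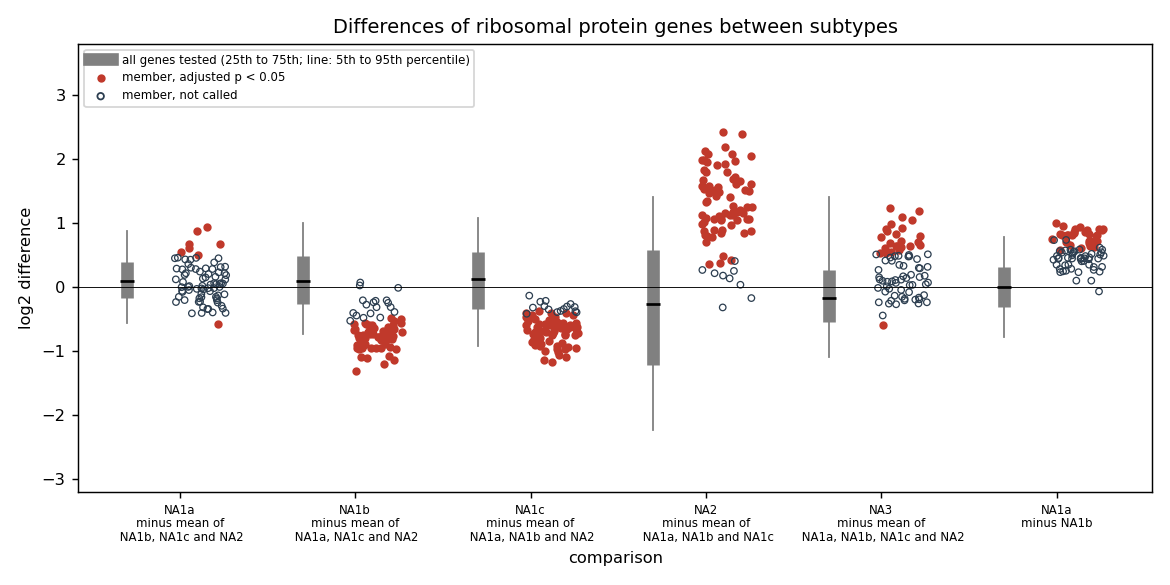
Log2 differences (y axis) of the 80 tested members in the 6 comparisons (x axis), filled where called at an adjusted p below 0.05 and open otherwise, with grey bars for all 6185 genes tested. In the NA2 comparison the members reach up to 2.42, while the median of all genes lies at -0.26.

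The ratio of summed 40S to summed 60S UMIs, stalk included and paralogues left out, was 0.732 ± 0.0371 (SD, n = 5) in NA2 and 0.701 ± 0.0103 (n = 3) in NA3. It was 0.610 ± 0.0190, 0.612 ± 0.0402 and 0.614 ± 0.0341 in NA1a, NA1b and NA1c (n = 5 each). The NA2 profiles ran from 0.684 to 0.781 and no NA1 profile exceeded 0.681, so the gap between the nearest mice was small. Without the shared barcodes the NA2 ratio was 0.698 ± 0.0216 (n = 4), and its range of 0.666 to 0.710 overlapped with that of NA1b. The median log2 difference in the NA2 comparison was 1.42 for the 31 proteins of the 40S and 1.08 for the 43 of the 60S, and 1.41 and 1.07 without the shared barcodes.

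NA1a was set against the mean of NA1b, NA1c and NA2. Of the 80 members 7 were higher and 1 lower, against 5.68% and 1.89% of all genes tested. These counts lay near the shares of all genes, and the median difference was 0.05 against 0.10 over all genes. Among those higher in every mouse were Rpl35 (0.88 ± 0.18), Rpl28 (0.67 ± 0.15) and Rpl23a (0.67 ± 0.17), and Rps14 was lower (-0.57 ± 0.18, limma adjusted p = 0.042). Rpl35, Rpl28 and Rpl23a are members that did not pass in the NA2 comparison above. NA2 is part of the mean that NA1a was set against, so this overlap is partly built into the comparison. Rpl35 and Rpl23a both encode proteins at the exit of the 60S tunnel, where nascent chains leave the ribosome. The proteins of that site were not compared as a group, so nothing is concluded from these 2 genes. The calls of Rpl23a, Rpl35, Rpl28 and Rps14 were lost in 5, 2, 2 and 11 of the alternatives run.

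Rpl35 was at 5.54, 5.74, 5.89, 5.72 and 4.38 in NA1a of replicates 1 to 5, against 1.85 to 6.05 with a median of 2.89 in the 15 other profiles (limma adjusted p = 0.00148). Its NA1a values overlapped with those of the other profiles, and no member had all NA1a profiles above all others, which 0.0647% of all genes tested did. Without replicates 1 or 4 the calls in this comparison fell to 4 and 3. Of all genes tested, 2.95% were then called higher and 0.793% lower without replicate 1, and 3.24% and 0.938% without replicate 4.

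Between NA1a and NA1b, 30 members were higher in NA1a and 0 lower, where 2.67% of all genes tested were called higher and 1.47% lower. The median was 0.55 (1.46-fold) and 79 of the 80 differences were positive. The largest was that of Rpl34, a 60S protein, which was at 7.11, 6.69, 5.15, 5.06 and 4.05 in NA1a and at 3.07, 2.13, 2.99, 2.98 and 2.44 in NA1b. The groups did not overlap and the log2 difference was 1.00 ± 0.19 (limma adjusted p = 0.000628). Rpl35 (0.96 ± 0.22), Rpl39 (0.94 ± 0.22), Rpl36a (0.91 ± 0.26) and Rpl17 (0.90 ± 0.20), all of the 60S, followed. Rpl11 (0.81 ± 0.18), Rplp2 (0.82 ± 0.20) and the paralogue Rpl22l1 (0.83 ± 0.22) were called as well, while Rps27a (0.58 ± 0.18, adjusted p = 0.0582) and Rpl22 (0.74 ± 0.22, adjusted p = 0.0513) missed the threshold in the same limma fit. For 15 members every NA1a profile lay above every NA1b profile, as did 3.65% of all genes tested.

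This count depended on single mice and on depth. It was 3 without replicate 1, 9 without replicate 2 and 18 without replicate 4, although the median stayed between 0.44 and 0.64 when any 1 mouse was left out. Of all genes tested, 1.23%, 1.71% and 1.75% were called higher in these fits, against 2.67% with all mice. The count of members was 19 without the mouse as a block, 5 when neurons were thinned to 2000 UMIs (median 0.57) and 7 when UMIs were summed (median 0.47). The shares of all genes called higher were then 1.99%, 0.816% and 2.15%. The median neuron was deeper in NA1a than in NA1b in 3 of 5 mice, with medians of 6182.5 to 9470 UMIs per mouse against 2569 to 9223.

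NA1b and NA1c were low for most members when set against means that included NA2. In NA1b, 62 of 80 members were lower and 0 higher (7.10% and 10.8% of all genes tested), with a median of -0.70. The largest were Rpl15 (-1.31 ± 0.17), Rpl9 (-1.20 ± 0.17), Rpl17 (-1.14 ± 0.16), Rps4x (-1.11 ± 0.16) and Rpl7a (-1.10 ± 0.19), each lower in 5 of 5 mice. In NA1c, 65 were lower and 0 higher (12.7% and 16.4% of all genes tested), with a median of -0.62, led by Rps7 (-1.17 ± 0.17), Rpl22l1 (-1.14 ± 0.18), Rps25 (-1.09 ± 0.16) and Rps3a1 (-1.06 ± 0.17). Of the 80 members 44 had their lowest mean level in NA1b, 35 in NA1c and 1 in NA3.

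NA3, fitted in the 3 mice with at least 10 neurons, was set against the mean of the other 4 subtypes. Here 24 members were higher and 1, Rpl31, was lower (-0.60 ± 0.21), against 8.42% and 10.8% of all genes tested, and the median was 0.28. The calls included 14 of 31 proteins of the 40S and 7 of 43 of the 60S. Rps27 was at 9.44, 3.75 and 4.91 in NA3 of replicates 2, 4 and 5, against 1.07 to 8.38 with a median of 2.08 in the 20 other profiles, which overlapped (1.24 ± 0.25, limma adjusted p = 0.000193). Rpl7l1 (1.18 ± 0.42), Rps15a (1.09 ± 0.22), Rps27l (1.04 ± 0.30) and Rps16 (0.99 ± 0.21) followed. Rpl7l1 had the lowest level of the tested members in each subtype, with means of 0.553 in NA3 and 0.175 to 0.350 in the others. Its place in this order is therefore uncertain. The Rpl7l1 call was lost without the mouse as a block, without the filter on low genes and in thinned neurons. It was also lost without replicate 2, 4 or 5. Leaving out the shared barcodes changes the NA2 part of each mean. The calls then numbered 7 for NA1a and 21 for NA3, all higher, and 62 for NA1b and 64 for NA1c, all lower. Of all genes tested, 5.31%, 8.10%, 8.69% and 13.8% were called higher in NA1a, NA3, NA1b and NA1c. The shares called lower were 1.96%, 10.5%, 5.42% and 10.3%. The calls of Rps14 in NA1a and of Rpl7l1 and Rpl31 in NA3 were lost. With both directions counted there were 25 NA3 calls, of which 16 were left without the mouse as a block, 7 without replicate 2 and 8 without replicate 5. Of all genes tested, 8.23%, 6.63% and 6.52% were called higher in these fits and 10.7%, 8.29% and 6.96% lower.

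NA3 neurons also held glial RNA, which bears on all these values. The 10 satellite glia markers summed to 193 to 355 UMIs per 10000 in the 3 NA3 profiles and to 3.26 to 25.8 in the NA1a, NA1b, NA1c and NA2 profiles. All 9 satellite glia markers tested, all 5 Schwann cell markers and all 3 fibroblast markers tested were higher in NA3, and all 10 neuronal markers were lower, with a median log2 difference of -1.03. In each of the other 4 subtypes the neuronal list summed to 129 to 186 per 10000, Kcnj10 was at or near 0 and the synaptic gene Snap25 was at 8.14 to 9.10. The part of glial RNA in the NA3 result was not tested. The noradrenaline synthesis genes Th and Dbh were at 5.86 to 8.57 and 9.66 to 12.5 in NA1a, NA1b, NA1c and NA2, and at 2.97 and 6.38 in NA3. Ach1 held it too (satellite glia list 120 per 10000 in replicate 4).

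The paralogues of core proteins behaved differently from each other. Rpl22l1, a paralogue of the 60S protein Rpl22, was at 8.53, 8.90, 6.31, 6.69 and 6.88 UMIs per 10000 in NA2. Its level in the NA1 profiles ran from 0.916 over 1.58 to 3.64, without overlap (log2 difference 1.98 ± 0.18, limma adjusted p = 5.73e-12, and 1.90 ± 0.21 without the shared barcodes). Rpl22 itself was at 2.42, 3.47, 1.93, 3.31 and 2.62 in NA2 and differed by 0.49 ± 0.18 (limma adjusted p = 0.02), a call that was lost without the shared barcodes and without replicate 2, 4 or 5. The pair was set side by side after its values had been seen.

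The ratio of Rpl22l1 to Rpl22 was 2.80 ± 0.602 (SD, n = 5) in NA2 and 1.13 ± 0.326, 1.09 ± 0.449 and 0.793 ± 0.324 in NA1a, NA1b and NA1c. In NA3 it was 0.771 ± 0.139 (n = 3). The log2 ratio was higher in NA2 than in the mean of the NA1 subtypes in 5 of 5 mice, by 1.54 ± 0.655 (SD), with an exact two-sided sign-flip permutation p of 0.0625, which is the smallest that 5 mice can give. Without the shared barcodes and with a minimum of 5 neurons the difference was 1.46 ± 0.656, again in 5 of 5 mice. Pooled over all neurons, Ach2 held 4.27 Rpl22l1 and 2.16 Rpl22 UMIs per 10000, Ach1 2.75 and 3.70, and Glut 1.80 and 1.58.

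**Figure D5:**
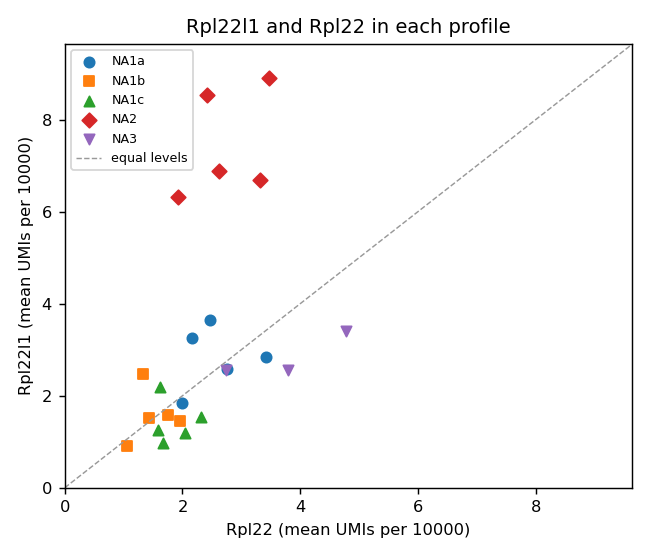
Rpl22l1 (y axis) against Rpl22 (x axis), both as mean UMIs per 10000, with 1 symbol for each profile of a mouse and subtype and a dashed line at equal levels. The 5 NA2 profiles lie apart at 6.31 to 8.90 for Rpl22l1, while their Rpl22 values of 1.93 to 3.47 overlap with those of NA1a and NA3.

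Rps27l, the p53-inducible paralogue of Rps27, was also higher in NA2 (1.58 ± 0.24, limma adjusted p = 3.17e-07), with means of 2.05 ± 0.580 in NA2 and 0.795 ± 0.344, 0.624 ± 0.121 and 0.485 ± 0.198 in NA1a, NA1b and NA1c (SD, n = 5). Its ratio to Rps27 was higher in NA2 in 4 of 5 mice, by 0.66 ± 0.728 on the log2 scale (exact sign-flip permutation p = 0.1875), a difference smaller than its spread between mice. Rps27l was still called without the shared barcodes (1.60 ± 0.27), while with a minimum of 5 neurons its ratio to Rps27 was higher in NA2 in 3 of 5 mice, by 0.30 ± 1.10 (exact sign-flip permutation p = 0.625). Rpl7l1, which works in ribosome assembly, was between 0.175 ± 0.122 in NA1c and 0.553 ± 0.150 in NA3. Rpl36al, a paralogue of Rpl36a outside the naming rule, was higher in NA2 as well (1.29 ± 0.21).

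Lists of other genes of the translation machinery were counted in the same NA2 comparison, where 24.9% of all genes tested were called higher and 39.1% lower. Of 19 other TOP mRNAs tested, 13 were higher and 0 lower, among them Fau (1.42 ± 0.14), which encodes the 40S protein eS30 fused to a ubiquitin-like protein, Tpt1 (1.46 ± 0.15) and Naca (1.60 ± 0.17), part of the nascent chain complex. Of 8 elongation factor genes 4 were higher and 1 lower, with Eef1b2 at 1.83 ± 0.20, Eif5a at 1.34 ± 0.16 and Eef1a1 at 1.06 ± 0.14. Of 35 initiation factor genes 18 were higher and 3 lower, led by Eif1b (1.69 ± 0.19), Eif3h (1.44 ± 0.19) and Eif3k (1.15 ± 0.18). Of 62 genes of the mitochondrial ribosome, which is built from other proteins, 48 were higher and 1 lower with a median of 1.14, led by Mrpl20 (2.11 ± 0.26), Mrpl36 (2.36 ± 0.30) and Mrpl41 (2.14 ± 0.29). With the shared barcodes left out 33 of 58 genes of the mitochondrial ribosome were higher and 1 lower, and with a minimum of 5 neurons 21 of 53 were higher and 2 lower. At the minimum of 10 neurons 14 of 19 other TOP mRNAs, 6 of 8 elongation factor genes and 18 of 35 initiation factor genes were then higher.

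Of 26 ribosome biogenesis genes tested 9 were higher and 9 lower, against the same 24.9% and 39.1%, with Nop10 (2.11 ± 0.22) and Snu13 (1.37 ± 0.22), both of small nucleolar ribonucleoproteins, higher and Taf1d (-2.30 ± 0.28), of the RNA polymerase I factor SL1, lower. Of 13 genes of growth control 1 was higher and 8 lower. When the shared barcodes were left out 6 of 25 biogenesis genes were higher and 7 lower, and 1 of 13 growth control genes was higher and 7 lower. The growth control gene called higher was Rheb (1.82 ± 0.19), the activator of mTORC1, and Tsc1 (-3.38 ± 0.28), part of its inhibitor, and Rptor (-2.46 ± 0.29), a subunit of mTORC1, were lower. Tsc1 and Rptor were at 0.0410 and 0.0875 UMIs per 10000 in NA2, where the added 0.1 sets much of the difference. Between NA1a and NA1b, where 2.67% of all genes tested were called higher and 1.47% lower, the calls were 2 of 19 for the other TOP mRNAs (Fau and Npm1), 1 of 13 for growth control (Rheb), 1 of 26 for biogenesis (Npm1, which stands in both lists) and 0 of 35, 8 and 62 for initiation factors, elongation factors and the mitochondrial ribosome.

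The genes whose levels over the 23 profiles were most like the summed level of the members were Fau (Pearson's r = 0.97), Tpt1 (0.96), Uqcrh (0.95), a subunit of respiratory complex III, the tubulin chaperone Tbcb (0.94) and the actin-binding Tmsb4x (0.94). The median r of the 80 members with that sum was 0.89, from 0.14 for Rpl28 to 0.97 for Rpl9. These are descriptions over profiles that share mice.

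Length was weakly related to the differences. Over the 80 tested members the NA2 difference and coding length had a Spearman's rho of 0.23, and transcript length one of 0.08. For the NA1a comparison, rho with coding length was -0.38. Of the 80 members 69 had their highest mean level in NA2, 7 in NA1a (among them Rpl23a, Rpl28, Rpl35, Rpl37, Rpl38 and Rpl41) and 4 in NA3 (Rpl7l1, Rpl22, Rps27 and Rps29).

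Reporter transcripts marked 25 neurons, too few for a comparison over mice. The 11 tdTomato neurons of NA1b had a median share of ribosomal protein UMIs of 2.80%, from 1.73% to 4.18%, against 3.05% in 298 NA1b neurons without a reporter. The GFP neurons of NA1a, NA1b and NA3 were 2, 3 and 1.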

How the data were processed

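Single cells of mouse stellate ganglia were captured with the 10x Genomics system. The submitters' processing notes name Cell Ranger 2.1.1, Seurat, Scanpy and mm10. The study's methods kept cells with gene numbers between 500 and 6000, UMI totals under 20000 and a mitochondrial part under 15%. They describe no removal of doublets, and none was made here. The values deposited by the authors are on a natural log scale, as ln of 1 plus UMIs scaled to 10000 per neuron. Each neuron's values were divided by its smallest step to recover UMIs, and 100% of nonzero values lay within 0.01 of a whole number. Levels were not divided by transcript length.

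For each mouse and subtype with at least 10 neurons, log2 of the mean plus 0.1 was fitted in limma 3.58.1 (R 4.3.3) with a variance trend and the mouse as a block. Tests were two-sided. The pairing rests on profiles of 1 animal, whose residuals had a mean correlation of 0.07 with each other and -0.07 with those of other mice. Software was Python 3.11.15 (SciPy 1.17.1, pandas 2.3.3, NumPy 2.4.6, matplotlib 3.10.9). The fit was tested on simulated data, where false calls in the NA2 comparison exceeded the nominal rate, most of them in the lower direction. Whether the mice were dissociated separately is not stated, so p-values measure the spread between these samples, which may be technical.

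The members and lists were chosen with earlier results of these data known. Genes were named by rule: in each comparison the 5 largest differences in each direction among called members with the same sign in every mouse. Also named by rule were the paralogues and their core partners, the stalk genes, and members with known roles outside the ribosome or in disease. The rule further took the 3 genes of smallest p in each list of translation genes, and the 5 genes most like the members. Members that failed the test in NA2, the nuclear RNAs and Rpl36al were named after their values were seen. Alternatives were the block, the filter, the pseudocount, centring, other totals, summed UMIs, thinning, a depth window, the minimum of neurons, and leaving out NA3, shared barcodes or each mouse. Some named members are not reported here. The 3 mouse names without a matching sample entered no test.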

Additional observations from a re-analysis of the deposited data

Results flagged for a closer look

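Among 72 groups of 5 mice (the share and the levels of 17 selected members, each in NA1a, NA1b, NA1c and NA2), 5 had 1 mouse far from the other 4, where chance gives about 1 in 20. In NA2, replicate 2 was high for 3 members. Rps16 was at 14.6 UMIs per 10000 there and at 8.20 to 9.69 in the other 4 mice, Rpl35 was at 6.05 against 3.07 to 3.64, and Rps27 was at 8.38 against 2.93 to 3.87. The other members were not screened. This profile rests on 14 neurons and 47777 UMIs, the fewest of the 23 profiles, and 8 of the 14 neurons had a shared barcode. Without replicate 2, 68 members were higher in NA2 and 1 was lower, where 22.6% of all genes tested were called higher and 34.6% lower. In NA1a, Rpl35 was at 4.38 in replicate 5 and at 5.54 to 5.89 in the others. In NA1c, Rpl23a was at 1.34 in replicate 4 and at 2.74 to 3.21 in the others.

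The 7 columns named as ribosomal pseudogenes, which the naming rule left out, held 218 UMIs over all neurons, or 0.00306% of all UMIs. Pooled over all neurons their share was 0.00763% in NA2 and 0.00171% in Glut. As means over matched mice it was 0.00465% ± 0.00182 in NA2 (SD, n = 5) and 0.00155% to 0.00229% in NA1a, NA1b and NA1c, while the 1 Ach1 mouse had 0.00497%.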

How the results depend on the processing

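The NA2 result kept its direction and size under all alternatives run, with medians of 1.01 to 1.47. Outside the depth window described below, 66 to 76 members were called, at most 2 of them lower. When 1 mouse was left out 67 to 70 were called. Over these alternatives 9.39% to 33.1% of all genes tested were called higher and 19.8% to 43.2% lower, so the counts are not directly comparable. Centring on the median gene, which lay at -0.26 in this comparison, gave the 76. The other comparisons were less stable in number. Without the replicate block 16 members were called in NA3 and 19 between NA1a and NA1b. Dropping the block changed no other count by more than 1.5 times. Without the filter on low genes the counts were 4 in NA1a, 14 in NA3 and 14 between NA1a and NA1b. Of all genes then tested, 1.65%, 7.62% and 0.676% were called higher, against 5.68%, 8.42% and 2.67% with the filter. Summed UMIs gave 3 in NA1a and 7 between NA1a and NA1b, where 4.59% and 2.15% of all genes tested were called higher. The NA2 share was then 9.06%. Thinning to 2000 UMIs gave 2 in NA1a, 39 in NA1b, 39 in NA1c and 5 between NA1a and NA1b. Of all genes tested, 1.34%, 3.39%, 6.10% and 0.816% were then called higher and 0.350%, 2.49%, 5.88% and 0.45% lower. The medians of the members were 0.09, -0.63, -0.60 and 0.57. The window of 2000 to 6000 UMIs, which left 1 mouse in NA1a and in NA3, gave 0 in NA1a, 2 in NA1b, 4 in NA1c, 0 in NA3 and 0 between NA1a and NA1b, and Rpl36a was reversed there (-0.22). A minimum of 5 neurons gave 39 calls in NA3, where 10.9% of all genes tested were called higher and 20.4% lower. With shared barcodes also left out it gave 5 in NA1a and 19 between NA1a and NA1b, where 3.53% and 1.92% were called higher. Leaving out 1 mouse gave 3 to 9 in NA1a, 7 to 24 in NA3 and 3 to 27 between NA1a and NA1b. Of all genes tested, 2.95% to 4.09%, 6.52% to 8.63% and 1.23% to 2.30% were then called higher. Without Malat1 and Meg3 the shares were 3.57% in NA1b and 3.63% in NA1c. The causes were not tested, except that the window and the mice left out reduce the samples. The alternatives with Malat1 and Meg3, shared barcodes and a minimum of 5 neurons together with them were chosen after seeing the data. Of 1517 values of single named genes under alternatives, 1329 kept their direction and side of the threshold, 187 lost the call and 1 was reversed. The number of neurons and mice limits the smaller differences.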
